A study of Mus musculus with 2 samples.

Results

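The genes described here are those whose symbols name them as proteins of the mitochondrial ribosome (Mrpl for the large subunit, Mrps for the small) or as subunits of the machines that bring proteins into the mitochondrion (Timm for the inner membrane side, Tomm for the outer membrane). They were chosen by symbol among the protein-coding rows of the deposited table, without use of their values. This gave 61 of 10627 rows: 27 Mrpl, 21 Mrps, 7 Timm and 6 Tomm genes. The mouse annotation used here (GENCODE vM21) has 103 protein-coding genes with such symbols, and the genes outside the deposited table were not analysed here.

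RNA was sequenced from Six2-expressing nephron progenitor cells, the cap mesenchyme that forms the epithelium of the nephron, isolated by FACS from kidneys of mouse embryos at day 15.5. The knockout (KO) library came from Six2CreGFP+;p53f/f cells, in which Cre made in Six2-expressing cells removes the floxed p53 gene. The wild-type (WT) library came from Six2CreGFP+;p53+/+ cells, so that both genotypes carried the Cre-GFP transgene, on a mixed CD1 and C57BL strain. Each genotype had 1 library, the labels do not say how many embryos went into it, and no difference below has a replicate check or a p-value of its own.

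The mitochondrial ribosome makes the few proteins encoded by mitochondrial DNA, which are core parts of the respiratory chain and ATP synthase. Its own proteins are encoded in the nucleus, made in the cytosol and imported, as are nearly all other mitochondrial proteins, through the outer membrane TOM complex and then the inner membrane TIM complexes. Many of its proteins have a bacterial counterpart and others arose with the mitochondrion. Nephron progenitors are known to draw strongly on glycolysis and to turn to mitochondrial respiration as they differentiate.

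Some of the promoters hold letters known to be bound by regulators of mitochondrial genes. Of the 61 genes, 53 matched an entry of the RefSeq promoter table (mouse build GRCm38.p6), a window that lies mostly upstream of the start. The 5 printed here were chosen because they hold matches to factors known for mitochondrial genes and belong to genes described below. Capitals mark matches on either strand to the ETS motif CCGGAAG, bound by the nuclear respiratory factor GABP, to the NRF1 motif or to the YY1 motif. The last run of capitals in Timm8b spells the NRF1 motif, searched with any base in the fifth place, and the last run in Mrps27 spells the YY1 motif. Mrps12 lies on the minus strand at chr7:28741772-28742071, Mrps27 on the plus strand at chr13:99344536-99344835, Timm8b on the plus strand at chr9:50603651-50603950 and Tomm70a on the plus strand at chr16:57121464-57121763. The Mrps11 window, on the plus strand at chr7:78782881-78783180, lies inside the annotated span of Mrpl46, which runs the other way.
Mrps12: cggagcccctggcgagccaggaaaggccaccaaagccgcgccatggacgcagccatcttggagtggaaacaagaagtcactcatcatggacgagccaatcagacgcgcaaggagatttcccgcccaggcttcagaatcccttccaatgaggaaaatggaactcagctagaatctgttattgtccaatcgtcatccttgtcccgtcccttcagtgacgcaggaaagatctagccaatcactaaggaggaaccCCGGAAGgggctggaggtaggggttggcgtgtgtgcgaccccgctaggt
Mrps27: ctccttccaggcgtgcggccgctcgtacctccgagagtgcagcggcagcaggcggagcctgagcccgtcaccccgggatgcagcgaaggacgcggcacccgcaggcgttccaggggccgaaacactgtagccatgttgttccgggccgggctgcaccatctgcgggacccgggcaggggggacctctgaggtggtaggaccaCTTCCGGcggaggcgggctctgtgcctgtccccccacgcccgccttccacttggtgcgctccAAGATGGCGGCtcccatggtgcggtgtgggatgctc
Timm8b: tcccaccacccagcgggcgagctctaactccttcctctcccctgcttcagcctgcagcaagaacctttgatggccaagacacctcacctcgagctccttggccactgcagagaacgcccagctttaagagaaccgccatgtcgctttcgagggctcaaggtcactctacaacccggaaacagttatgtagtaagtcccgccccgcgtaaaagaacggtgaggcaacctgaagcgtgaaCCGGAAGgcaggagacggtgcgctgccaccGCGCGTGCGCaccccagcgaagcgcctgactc
Tomm70a: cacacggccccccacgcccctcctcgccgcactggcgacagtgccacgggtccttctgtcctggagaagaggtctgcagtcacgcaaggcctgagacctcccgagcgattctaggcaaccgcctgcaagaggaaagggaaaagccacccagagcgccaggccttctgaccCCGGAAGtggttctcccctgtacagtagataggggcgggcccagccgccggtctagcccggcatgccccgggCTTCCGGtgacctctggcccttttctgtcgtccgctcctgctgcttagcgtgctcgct
Mrps11: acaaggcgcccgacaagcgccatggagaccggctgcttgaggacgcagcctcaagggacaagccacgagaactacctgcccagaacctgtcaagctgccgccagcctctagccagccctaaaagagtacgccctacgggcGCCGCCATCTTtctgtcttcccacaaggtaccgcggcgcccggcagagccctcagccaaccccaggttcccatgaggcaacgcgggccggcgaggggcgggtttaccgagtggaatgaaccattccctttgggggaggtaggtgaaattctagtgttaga

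The ETS motif was in 18 of the 53 promoters (34.0%), against 8.86% of all 32851 RefSeq promoters of this length and 14.6% of the 9003 promoters of genes in the deposited table. The YY1 motif was in 4 of 53 (7.55%), against 0.633% of all promoters and 1.30% of those of listed genes. The NRF1 motif was in 7 of 53 (13.2%), against 4.60% and 8.35%. Core promoter boxes and other factors' motifs were searched for comparison. The CCAAT box was in 47.2% of the 53, against 36.9% of listed genes, the E-box CACGTG in 5.66% against 9.70%, TATAAA in 9.43% against 7.49%, and the p53 consensus decamer in 5.66% against 7.08%. Both strands were searched, each motif was counted on its own so that matches to different motifs can share bases, and a match describes letters only. Genes with and without the ETS motif had medians of -0.18 and -0.15 for the log2 difference defined next, both below 0.

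Every gene below is given by its read density, a value per gene length and library depth that behaves as RPKM. The difference is log2(KO + 1) minus log2(WT + 1) on these densities, so that a negative value means lower in KO and changes of low genes are understated. The ratio is KO over WT with an exact 95% interval from estimated reads, which covers counting error only. The implied depth was about 85600000 reads in KO and about 91200000 in WT. Trp53, the targeted gene, had 5.38 RPKM in the KO library and 33.9 RPKM in the WT library (ratio 0.158, interval 0.151 to 0.166), lower in the library labelled KO. The 12 nephron progenitor markers summed to 1257 RPKM in KO and 1201 RPKM in WT, with Six2 at 509 and 482 RPKM. Of these 12, 6 were lower in KO and 6 higher, with a median log2 difference of 0.00. The largest difference was that of Cited1, with 16.1 RPKM in KO and 23.6 RPKM in WT.

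Markers of other cells differed between the libraries. All 12 listed erythroid markers were lower in KO, summing to 23.9 RPKM there and 633 RPKM in WT, with Hba-x and Gata1 at 0 in KO. All 10 leukocyte markers were lower (2.35 RPKM in KO, 16.4 RPKM in WT), as were all 12 endothelial (15.1 and 33.9 RPKM), all 13 stromal (138 and 304 RPKM), all 10 ureteric bud (14.1 and 26.8 RPKM) and all 9 listed podocyte and tubule markers (6.59 and 48.0 RPKM). No marker of the last 5 lists was at 0 in either library. Their part in the differences below was not tested, and in bulk RNA fewer cells of a type and less RNA per cell cannot be told apart.

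Most of the mitochondrial ribosome and import genes were slightly lower in the KO library as deposited. Against listed genes of like GC content and length, whatever their density, they were not. Of the 61, 52 were lower and 9 higher, 85.2% lower against 63.9% of the 10617 listed genes. Their summed density was 1508 RPKM in KO and 1659 RPKM in WT. The median log2 difference was -0.16, against -0.11 over all listed genes, and after the 2 libraries were centred on that median 46 of the 61 were lower, against 50.0% of all genes, with a median of -0.04. Against the median of listed genes of like GC content and length, 26 of 60 were lower, against 49.9% of all, with a median of 0.0077. Corrected values of single genes, roles and related gene lists given below have the median of all genes, -0.11, added back. On the log2(density + 1) scale 1 gene, Tomm6, was at least 1.5-fold lower, against 5.49% of listed genes, and 0 were at least 1.5-fold higher, against 0.951%. Mrpl53, at 0 in KO, is past that fold by its ratio but not on that scale, which understates its low density. The genes were also well read, with 52 of the 61 at or over the median density of listed genes, 7.30 RPKM. Among those, 45 of 52 were lower (background 55.8%), with a median of -0.16 against -0.07. The genes of like GC content and length were not matched on density. The GC and length correction among the well-read genes was chosen after seeing the data. With the median of listed genes there, -0.07, added back, it left 48 of 52 lower, against 72.8% of those listed genes. The median of the 52 was -0.09. Over all densities, with -0.11 added back, 54 of 60 were lower, against 76.6% of all listed genes. The 26 of 60 above had nothing added back.

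**Figure D1:**
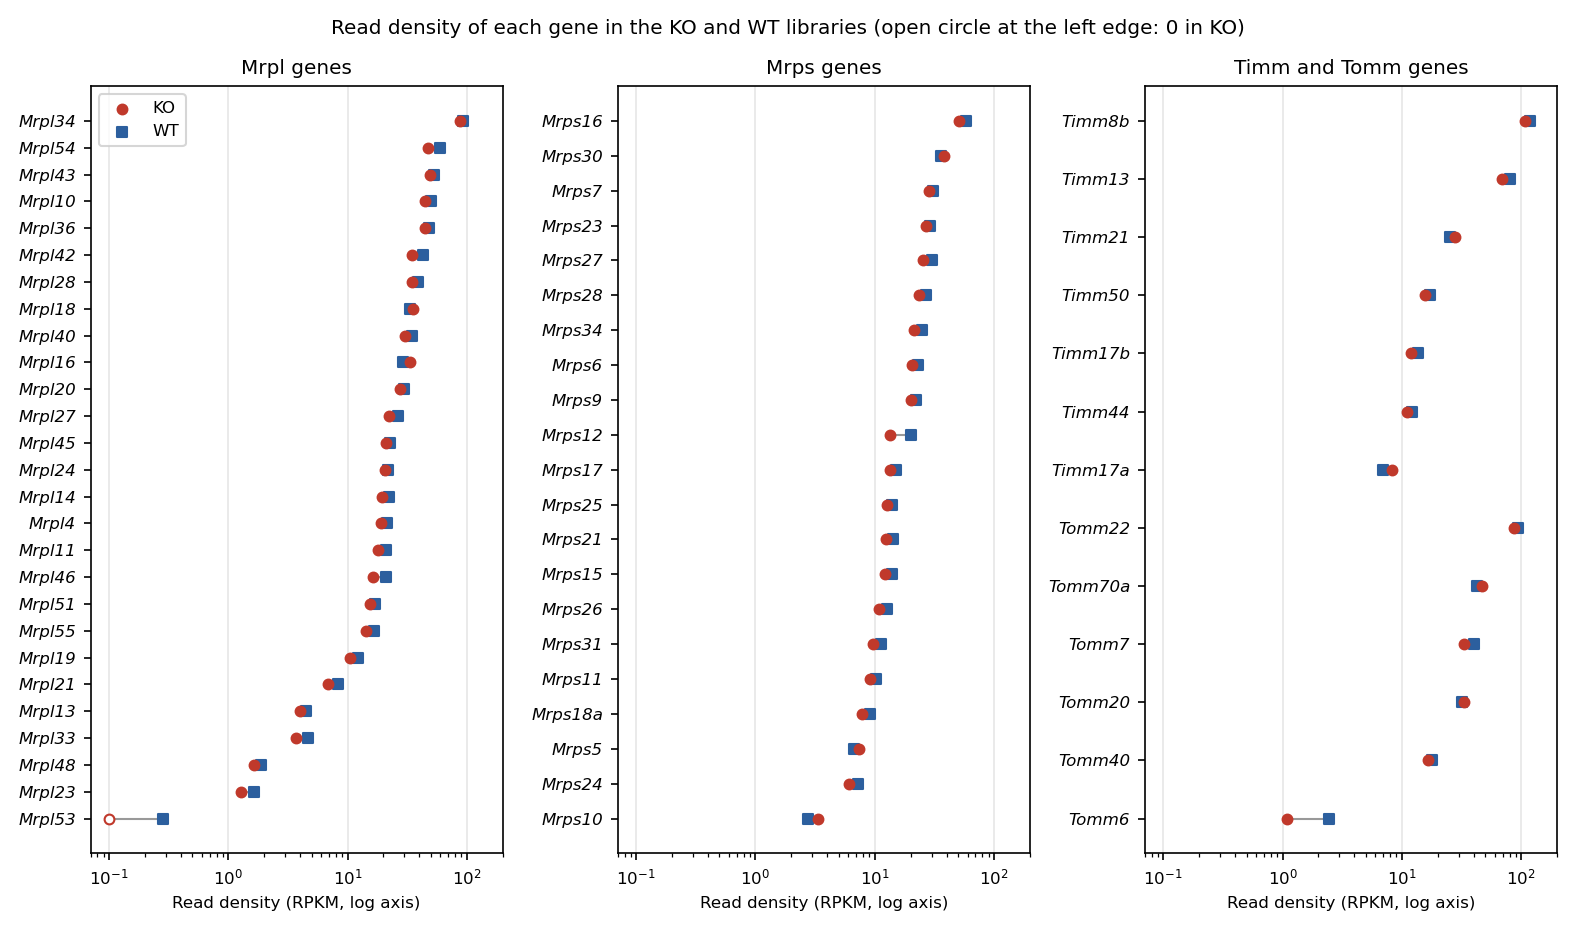
Read density in RPKM (log axis) of each of the 61 genes in the KO library (red circles) and the WT library (blue squares), 1 library each, ordered by density within Mrpl, Mrps, and Timm and Tomm. Most circles lie just left of their squares, Mrps12 and Tomm6 lie farther left, and Mrpl53, drawn as an open circle at the left edge, was at 0 in KO.

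The plot of all densities shows a spread of levels far wider than any difference between the libraries. Timm8b was the highest of the 61, with 108 RPKM in KO and 118 RPKM in WT, and Mrpl53 the lowest, with 0 RPKM in KO and 0.281 RPKM in WT. All 60 genes with a gene model had a ratio interval that excluded 1, which the table itself sets, since it lists only genes with a corrected p-value of at most 0.049983 in the authors' comparison.

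On the deposited densities, the proteins of the large subunit were lower in KO in 26 of 29 cases, with a median of -0.17. Of all listed genes, 63.9% were lower, with a median of -0.11. Against genes of like GC content and length, 21 of 47 genes of both subunits were lower, against 49.9% of all. As deposited, large subunit proteins with a bacterial counterpart were lower in 15 of 17 (median -0.16). Those grouped here as mitochondrial were lower in 11 of 12 (median -0.19). After the GC and length correction the medians were -0.08 over 16 genes with a bacterial counterpart and -0.16 over the 12. All listed genes had -0.11. Despite their symbols, Mrps30 and Mrps18a belong to the large subunit and are counted there.

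Among the mitochondrial large subunit proteins, Mrpl46 had 16.2 RPKM in the KO library and 21.1 RPKM in the WT library, a log2 difference of -0.36 and a ratio of 0.767 (interval 0.723 to 0.813). Mrpl54 had 47.0 RPKM in KO and 59.5 RPKM in WT (ratio 0.789, interval 0.754 to 0.825). Mrpl42 had 34.5 RPKM in KO and 42.5 RPKM in WT (ratio 0.812, interval 0.792 to 0.833). Mrpl46, Mrpl54 and Mrpl42, all over the median density, had the most negative differences of the Mrpl genes as deposited, along with Mrpl53. Corrected for GC content and length, the differences of Mrpl46 and Mrpl54 were -0.27 and -0.22, and that of Mrpl42 went from -0.29 to -0.49. Mrpl53 was at 0 in KO and at 0.281 RPKM in WT, about 18.8 reads, with an interval of 0 to 0.228 for the ratio. Of its exon bases, 88.0% are shared with the annotated gene Gm42688 on the same strand, so its reads may be assigned to either. Mrpl43 had 48.8 RPKM in KO and 53.1 RPKM in WT. Of its exon bases, 33.4% are shared with Twnk on the opposite strand, which had 31.5 RPKM in KO and 29.4 RPKM in WT.

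Among large subunit proteins with a bacterial counterpart, Mrpl33 had 3.70 RPKM in KO and 4.63 RPKM in WT, a difference of -0.26. Mrpl34, the highest Mrpl gene, had 88.2 RPKM in KO and 93.3 RPKM in WT, a difference of -0.08 that turned to 0.03 both when the libraries were centred and when base composition and length were corrected for. The large subunit had 3 genes that were higher in KO as deposited. Mrpl16, the counterpart of the bacterial L16 protein near the tRNA sites, had 33.4 RPKM in KO and 29.4 RPKM in WT (ratio 1.14, interval 1.10 to 1.17). Mrpl18, the counterpart of the 5S rRNA binding protein of bacteria, had 35.6 RPKM in KO and 33.4 RPKM in WT. Mrps30 had 37.8 RPKM in KO and 35.7 RPKM in WT, a difference of 0.08 that was -0.18 once GC content and length were corrected for.

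On the deposited densities, the small subunit was lower in KO in 17 of 19 genes, with a median of -0.17. Of all listed genes, 63.9% were lower, with a median of -0.11. Mrps12, the counterpart of the bacterial decoding centre protein S12, had the largest difference of the 52 well-read genes as deposited. It had 13.5 RPKM in the KO library and 20.1 RPKM in the WT library. Its log2 difference was -0.54 and its ratio 0.670 (interval 0.623 to 0.721), from about 1202 reads in KO and 1911 in WT, and the authors' deposited table lists a fold change of -1.43 for it. The difference was -0.43 both when centred and when corrected for GC content and length. After that correction Mrpl42 had a more negative value, -0.49, and Tomm7 also had -0.43. Mrps12 has no copy found in the annotation and no overlapping exon, and its promoter, printed above, holds 1 ETS match.

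As deposited, most of the other small subunit genes lay close together. All 6 mitochondria-specific ones were lower as deposited, against 63.9% of all listed genes, with a median of -0.21 against -0.11. After the GC and length correction their median was -0.19, against -0.11. Mrps27, which binds mitochondrial RNA in human cells, had 25.6 RPKM in KO and 30.0 RPKM in WT. Mrps34 had 21.3 RPKM in KO and 24.9 RPKM in WT, and Mrps31 had 9.66 RPKM in KO and 11.3 RPKM in WT. Their log2 differences lie between -0.22 and -0.21. Corrected for GC content and length, these were -0.17 for Mrps27, -0.11 for Mrps34 and -0.41 for Mrps31. Of the Mrps34 exon bases, 63.4% are shared with Mapk8ip3 on the opposite strand and 37.0% with Nme3 on the same strand. Of the 13 with a bacterial counterpart, 11 were lower, beside the same 63.9%, with a median of -0.17 that was -0.09 after that correction. Mrps16, the highest Mrps gene, had 51.3 RPKM in KO and 57.8 RPKM in WT, and Mrps7, which nucleates the head of the bacterial small subunit, had 28.4 RPKM in KO and 30.8 RPKM in WT. Mrps24 had 6.14 RPKM in KO and 7.25 RPKM in WT. The other two were higher in KO under every scaling tried: Mrps10 had 3.37 RPKM in KO and 2.77 RPKM in WT (ratio 1.21, interval 1.14 to 1.29), and Mrps5 had 7.32 RPKM in KO and 6.74 RPKM in WT.

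**Figure D2:**
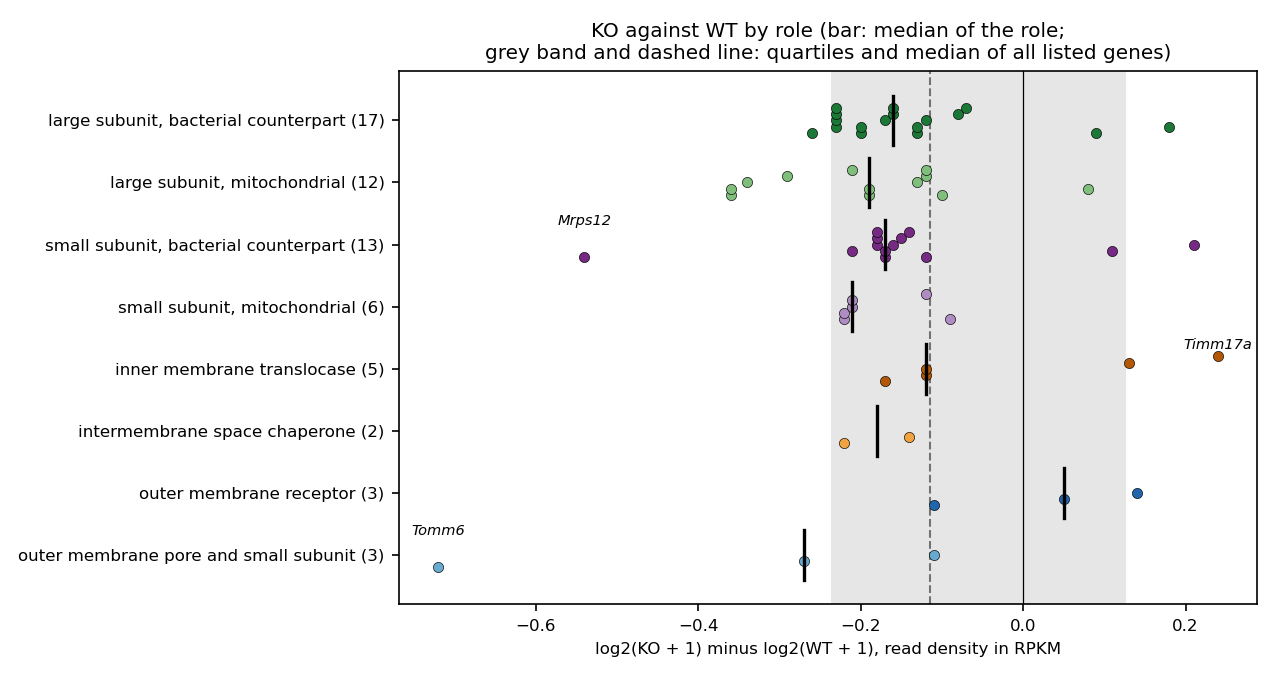
Log2 difference in read density, KO over WT with 1 added to each, for each gene (points) by role, with the number of genes in parentheses, the role's median (bar) and the quartiles and median of all listed genes (grey band, dashed line). On the deposited densities the ribosomal roles have medians between -0.21 and -0.16, and Mrps12 and Tomm6 lie at -0.54 and -0.72. After correction for GC content and length the ribosomal medians lie between -0.19 and -0.08. The receptors of the outer membrane have a median of 0.05, which is -0.15 after correction for GC content and length. All listed genes have a median of -0.11 before and after that correction.

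Of the import genes, 9 of 13 were lower on the deposited densities, near the 63.9% of all listed genes, with a median of -0.12. The ribosomal genes had 43 of 48 lower and a median of -0.17. Against genes of like GC content and length, 5 of 13 import genes and 21 of 47 ribosomal genes were lower, with medians of 0.01 and 0.0054. The difference between these sets was not tested. The median of the 6 Tomm genes was -0.11 as deposited, 0.0031 when the libraries were centred and -0.05 against genes of like GC content and length.

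At the outer membrane, Tomm6, a small subunit that in yeast helps the TOM complex assemble, was the 1 gene past 1.5-fold on the log2(density + 1) scale. It had 1.09 RPKM in the KO library and 2.44 RPKM in the WT library, a log2 difference of -0.72 and a ratio of 0.445 (interval 0.350 to 0.559), from about 105 reads in KO and 252 in WT. Its exons lie on chromosome 17, and 76.0% of their bases are shared with Gm21981, a longer gene annotated on the same strand, which had 17.2 RPKM in KO and 20.9 RPKM in WT. Reads from such shared bases may be assigned to either gene. Tomm7, another small subunit, had 33.2 RPKM in KO and 40.3 RPKM in WT (ratio 0.825, interval 0.787 to 0.864). Its difference of -0.27 was -0.43 once GC content and length were corrected for.

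Tomm40, the channel of the outer membrane, had 16.5 RPKM in KO and 17.9 RPKM in WT, and Tomm22, the central receptor, had 86.5 RPKM in KO and 93.4 RPKM in WT. Both had differences of -0.11, which became 0.0012 for Tomm40 and 0.0051 for Tomm22 when the libraries were centred. The receptors that first meet incoming proteins were higher in KO as deposited. Tomm70a, the receptor for carrier proteins, had 47.1 RPKM in KO and 42.8 RPKM in WT, and Tomm20, the receptor for proteins with a presequence, had 33.2 RPKM in KO and 32.1 RPKM in WT. Their differences of 0.14 and 0.05 turned to -0.18 and -0.15 once GC content and length were corrected for.

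On the inner membrane side, the chaperone pair of the intermembrane space had the highest densities of the Timm genes. Timm8b had a ratio of 0.909 (interval 0.874 to 0.945), and Timm13 had 69.6 RPKM in KO and 81.2 RPKM in WT (ratio 0.857, interval 0.832 to 0.882). Of the TIM23 translocase, Timm50, its presequence receptor, had 15.7 RPKM in KO and 17.1 RPKM in WT. Timm44, which tethers the import motor, had 11.0 RPKM in KO and 12.1 RPKM in WT.

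The paralogues Timm17a and Timm17b, alternative core subunits of that channel, lay on opposite sides. Timm17a had 8.32 RPKM in KO and 6.90 RPKM in WT (ratio 1.20), the largest difference upward among the 61, and Timm17b had an estimated 2632 reads in KO and 3174 reads in WT (ratio 0.883, interval 0.839 to 0.930). The Timm17a difference of 0.24 was 0.02 once GC content and length were corrected for. Timm21, which links the translocase to respiratory chain assembly, had 27.8 RPKM in KO and 25.3 RPKM in WT, a difference of 0.13 that became -0.14 after that correction.

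Base composition and length moved with the direction of these genes. The 9 genes higher in KO had a median GC content of 45.0% and a median exon length of 6578 bases, and the 52 lower ones 52.5% and 2011 bases. All listed genes showed the same order. Where GC content was under 47.3%, 8 of 14 of the genes were lower, against 35.5% of all listed genes. In the middle range 20 of 23 were lower, against 68.9%, and where GC content was over 53.6%, 23 of 23, against 87.2%. These limits divide all listed genes into 3 equal parts. Across genes, Spearman's rho of the log2 difference with GC content was -0.34 over 60 of these genes and -0.42 over 10508 listed genes, and that for exon length 0.42 and 0.27. Genes of the same 2 libraries are not independent, so no p-value is given. Against the median of listed genes in the same bin of GC content and length, 26 of the 60 were lower and 34 higher. Whether GC content or length sets these differences was not tested.

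**Figure D3:**
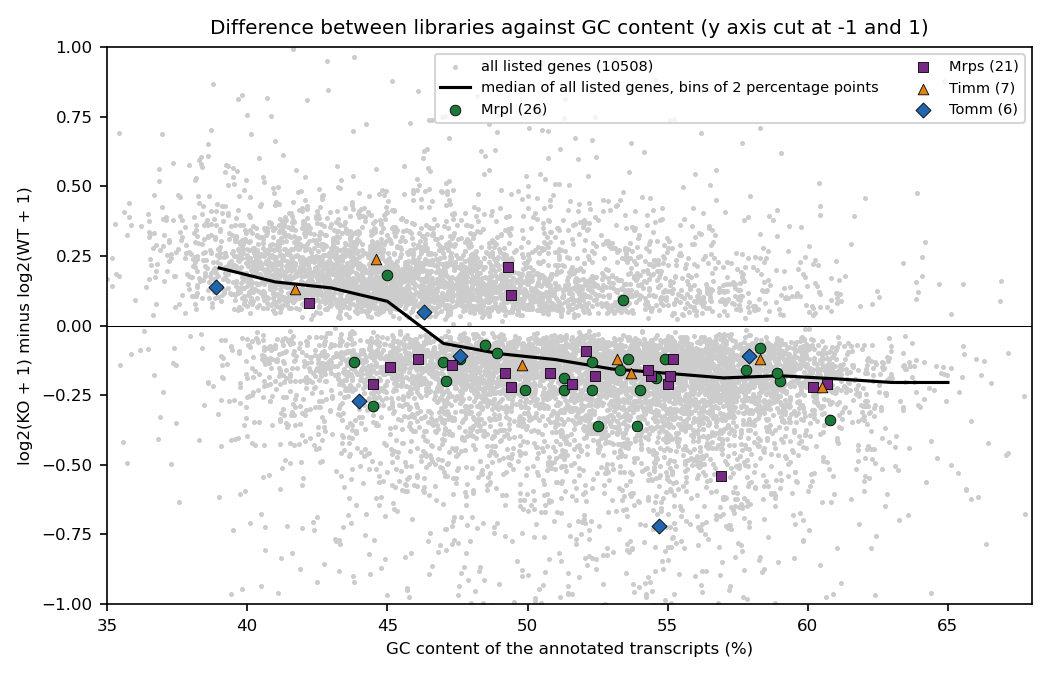
Log2 difference in read density, KO over WT with 1 added to each, against the GC content of the annotated transcripts in percent, for all 10508 listed genes with a gene model (grey) and for the Mrpl, Mrps, Timm and Tomm genes, with the median of all genes in GC bins (line). The line falls with GC content and the coloured points lie on both sides of it, with Tomm6 and Mrps12 far below.

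Many of these genes have processed pseudogenes. A coding sequence match of at least 90% identity over 100 bases was found for 21 of the 61 genes, to 38 copies, of which 37 are annotated as pseudogenes. Tomm20 has the most. How reads with several alignments were counted is not given in the sources used here, so the split between a gene and its copy is uncertain. Of the copies, 7 are in the deposited table, and 7 of 7 were lower in KO, like their parent genes, against 63.9% of all listed genes.

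Several copies were listed at higher densities than the gene itself. Mrpl23-ps1, identical to the Mrpl23 coding sequence over 438 bases, had 125 RPKM in KO and 136 RPKM in WT, while Mrpl23 had 1.27 RPKM in KO and 1.65 RPKM in WT. Gm14017, the copy of Mrpl51, had 84.7 RPKM in KO and 98.1 RPKM in WT, while Mrpl51 had 15.5 RPKM in KO and 16.9 RPKM in WT. Gm6304 (Mrpl27) had 78.7 RPKM in KO and 89.7 RPKM in WT, Gm6181 (Mrps21) 56.1 RPKM in KO and 63.2 RPKM in WT, and Gm12906 (Tomm22) 126 RPKM in KO and 135 RPKM in WT. The levels of the 21 genes with a copy are therefore uncertain. Without a copy, 37 of 40 genes were lower in KO, and with one 15 of 21, against 63.9% of all listed genes. Their median GC content was 53.9% without a copy and 49.3% with one. After the GC and length correction, with the median of all genes added back, their medians were -0.10 and -0.11. There were 26 genes with neither a copy nor an exon overlap of 10% or more with another gene. Of these, 23 were lower in KO as deposited, beside the same 63.9%, with a median of -0.15.

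**Figure D4:**
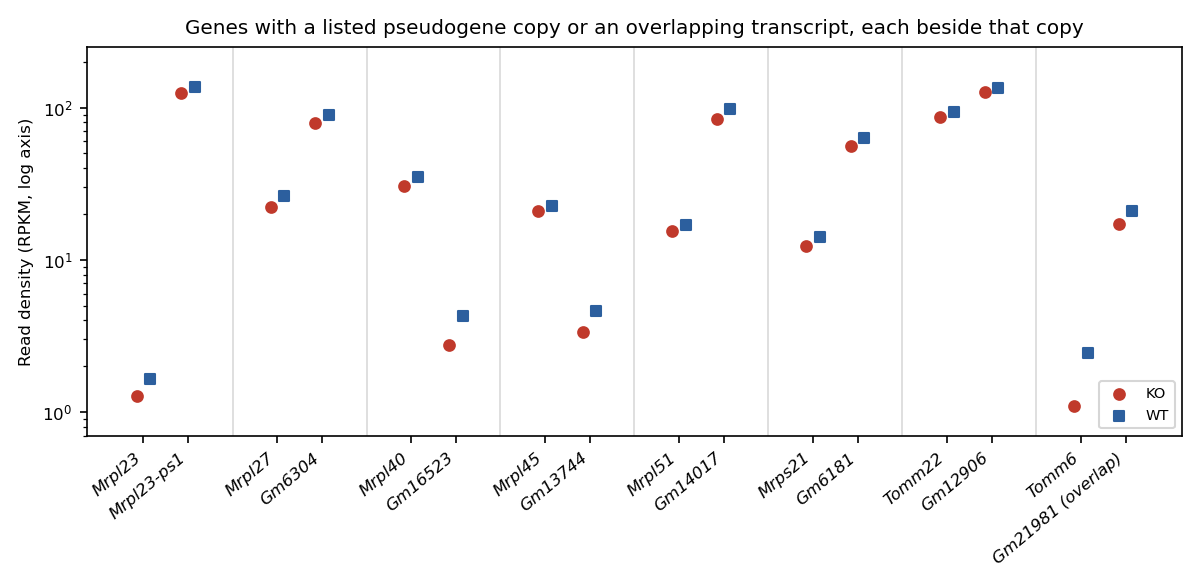
Read density in RPKM (log axis) in the KO library (red circles) and the WT library (blue squares) of 7 genes, each beside the pseudogene copy that the deposited table lists, and of Tomm6 beside the overlapping Gm21981. Mrpl23-ps1, at 125 RPKM in KO and 136 RPKM in WT, lies far above Mrpl23, and every pair has KO below WT.

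Some of these genes share a start region with another gene. Mrpl46 and Mrps11, which read away from overlapping starts on chromosome 7, differed by -0.36 and -0.16, with Mrps11 at 9.13 RPKM in KO and 10.3 RPKM in WT. Mrpl13 starts beside Mtbp, the listed neighbour that lay on the other side from its partner: Mtbp had 3.71 RPKM in KO and 3.34 RPKM in WT, and Mrpl13 3.96 RPKM in KO and 4.44 RPKM in WT. Timm8b starts beside Sdhd, a subunit of respiratory complex II, which had 146 RPKM in KO and 153 RPKM in WT. Mrpl36 starts beside Ndufs6, of complex I, with 13.8 RPKM in KO and 17.9 RPKM in WT, while Mrpl36 had 44.5 RPKM in KO and 48.3 RPKM in WT. Mrpl51 starts beside Ncapd2, a condensin subunit, and here the neighbours differed in size: Ncapd2 had 36.0 RPKM in KO and 63.4 RPKM in WT, a difference of -0.80, and Mrpl51 a difference of -0.12.

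The partners of these genes that carry other symbols showed differences of like size, and none reached 1.5-fold on the log2(density + 1) scale. On the densities alone Immp2l, an inner membrane peptidase with 0.319 RPKM in KO and 0.509 RPKM in WT, and Ppargc1b, given below, are past it. The counts that follow stand beside 63.9% lower and a median of -0.11 for all listed genes. Of 8 listed translation partners and other mitoribosome proteins, 7 were lower in KO (median -0.13), among them Aurkaip1, a small subunit protein, with 14.1 RPKM in KO and 17.1 RPKM in WT, and the elongation factor Tsfm, with 6.49 RPKM in KO and 7.51 RPKM in WT. Of 7 assembly factors, 5 were lower (median -0.14), among them the rRNA methyltransferase Rnmtl1, with 5.89 RPKM in KO and 7.61 RPKM in WT, and Mterfd2, the partner of the methyltransferase Nsun4, with 4.94 RPKM in KO and 6.19 RPKM in WT.

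Of 8 mitochondrial tRNA synthetases, 5 were lower (median -0.12). The leucine enzyme Lars2 had 32.8 RPKM in KO and 45.7 RPKM in WT, and the arginine enzyme Rars2 1.97 RPKM in KO and 2.62 RPKM in WT. Corrected for GC content and length, the Lars2 difference of -0.47 was -0.51 and the Rars2 difference of -0.29 was -0.43. Of 7 import partners, 6 were lower (median -0.17), with Romo1, a TIM23 subunit, at 27.8 RPKM in KO and 37.6 RPKM in WT and Pam16, of the import motor, at 0.913 RPKM in KO and 1.34 RPKM in WT.

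Of 9 mitochondrial chaperones and proteases, 6 were lower (median -0.09), among them the proteases Spg7 (-0.13) and Afg3l2 (-0.09). The inner membrane proteases Yme1l1, which degrades Timm17a in human cells, and Oma1 were higher. So was the chaperone Hspd1, with 148 RPKM in KO and 138 RPKM in WT. Yme1l1 had 11.0 RPKM in KO and 8.47 RPKM in WT, a difference of 0.34 that was 0.03 once GC content and length were corrected for, and Oma1 had 10.4 RPKM in KO and 8.87 RPKM in WT. Of 13 genes for upkeep and transcription of the mitochondrial genome and their regulators, 8 were higher and 5 lower (median 0.10). After the correction these 13 genes had a median of -0.09, against -0.11 for all listed genes. Among the 13, Ppargc1b, a coactivator of mitochondrial genes, had 4.31 RPKM in KO and 2.85 RPKM in WT. Myc, a transcription factor that acts on many ribosomal and mitochondrial genes, had 33.5 RPKM in KO and 27.5 RPKM in WT. The factors whose motifs were searched above had 19.6 RPKM in KO and 17.0 RPKM in WT for Gabpa, 43.5 RPKM in KO and 37.0 RPKM in WT for Yy1, and 5.60 RPKM in KO and 6.13 RPKM in WT for Nrf1.

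**Figure D5:**
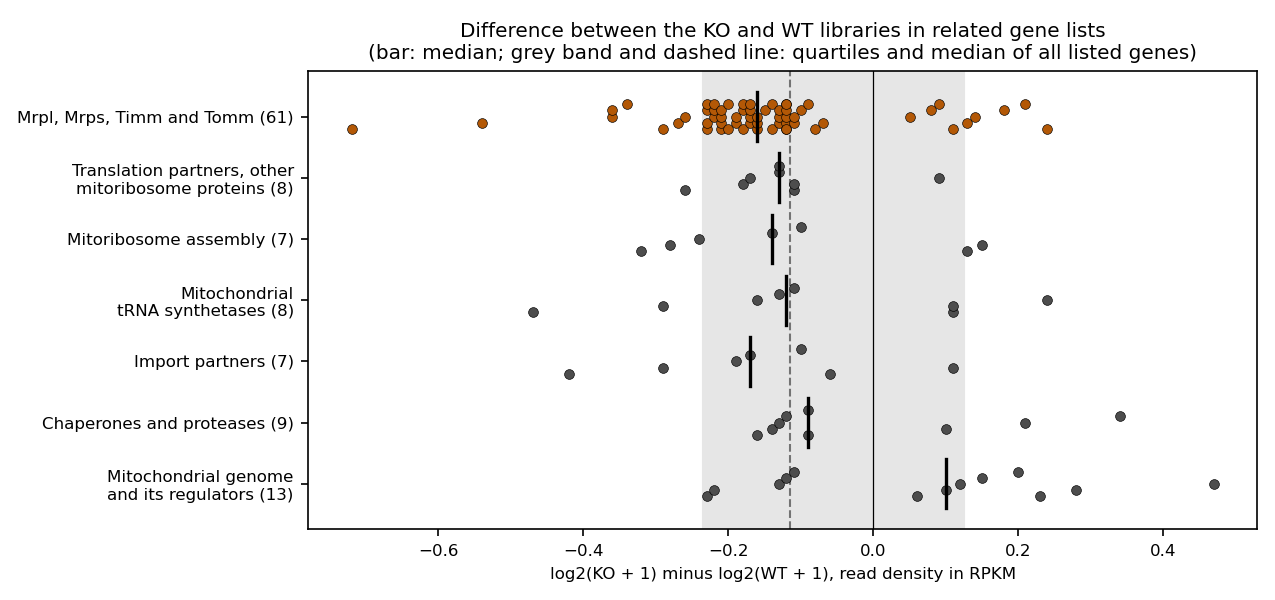
Log2 difference in read density, KO over WT with 1 added to each, for the 61 genes (top row) and for related gene lists, with each list's median (bar) and the quartiles and median of all listed genes (grey band, dashed line). The list on the mitochondrial genome and its regulators has a median of 0.10, which is -0.09 after correction for GC content and length. The others lie between -0.17 and -0.09 as deposited. All listed genes have a median of -0.11 before and after that correction.

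The nearest comparable sets, chosen by symbol in the same way, gave medians of like size as deposited. Of 62 respiratory chain and ATP synthase genes, 61 were lower in KO (median -0.18), and of 50 cytosolic ribosomal protein genes 43 were lower (median -0.15). Of all listed genes, 63.9% were lower, with a median of -0.11. After the GC and length correction the medians were -0.14 for the respiratory set and -0.11 for the cytosolic ribosomal set. All listed genes had -0.11 there too. No test of a difference between these sets and the 61 genes was made.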

How the data were processed

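RNA from sorted nephron progenitors was sequenced in 1 KO and 1 WT library. The submitters' processing notes name CASAVA 1.8, Novoalign 2.08.02 and FastQC and the builds GRCm38 and mm10. Not given in the sources used here: the counting rules, the strand and how multiple alignments were treated. Each library has a read density deposited by the authors, per the file headers, which behaves as RPKM by its values. They also deposited an absolute fold ratio, a signed fold change (a score, negative where KO was lower), a p-value and a corrected p-value. Their fold change holds a further library scaling of 1.04 (0.057 in log2). The depths were inferred from genes at 0 in 1 library.

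Differences are log2(density + 1), KO minus WT. With 1 library per group no test was run; 1.5-fold was a size rule. Ratio intervals are exact (Clopper-Pearson, 95%), from reads estimated by density, GENCODE vM21 exon length and depth; they are approximate and cover counting error only. GC content and length were corrected in 10 by 4 bins by subtracting each bin's median. The median of all genes binned was added back, or nothing where genes are set against like genes. Copies were found with blastn 2.17.0, and promoters scanned in Python 3.11.15. The scripts were tested on simulated data.

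Named genes were every gene past 1.5-fold, the 5 lowest, 2 highest and 3 most abundant of each family, all Tomm genes, Trp53 and the 2 largest differences of each partner list; others were named after their values were seen. The genes and all lists were chosen with earlier results of these data known. Alternatives changed the pseudocount, library scaling, density floor, GC and length correction, copies and size rule.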

Additional observations from a re-analysis of the deposited data

How the results depend on the processing

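The lower values of the 61 genes together depended on the scaling. Against listed genes of like GC content and length with nothing added back, an alternative chosen after seeing the data, 26 of 60 were lower, 0 were 1.5-fold lower, and the medians were 0.0077 for all, 0.0090 for Mrpl, 0.0054 for Mrps, 0.03 for Timm and -0.05 for Tomm. Under the other alternatives the median of all stayed below 0, which adding back -0.11 favours in the GC and length correction. Centring both libraries gave medians of -0.04 for the 61 genes, -0.05 for Mrpl, -0.05 for Mrps, -0.0079 for Timm and 0.0031 for Tomm, and -2.34 for Trp53. It also turned Mrpl34 (0.03), Tomm22 (0.0051) and Tomm40 (0.0012). The GC and length correction with the median of all genes added back turned Mrpl34 (0.03), Mrps30 (-0.18), Timm21 (-0.14), Tomm20 (-0.15) and Tomm70a (-0.18). With that correction over the median density, an alternative chosen after seeing the data, the medians were -0.09 for all and -0.09 for Mrpl. Listed genes there had a median of -0.07, which was added back. Of the 52 genes, 48 were lower, against 72.8% of listed genes there.

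The count of genes at least 1.5-fold lower was 1 as reported, 2 with 0.25 as pseudocount, and 0 with 4 as pseudocount, at or over the median density, there with the GC and length correction, and among genes with no copy or overlap. It was 5 with a smaller size rule of 0.32 in log2 and 0 at 2-fold. Without genes with a copy or overlap, chosen after seeing the data, 23 of 26 were lower, against 63.9% of all listed genes. The 2 Tomm genes left had a median of 0.01. Trp53 was at -2.60 and -2.02 with pseudocounts of 0.25 and 4. Of 219 single gene differences under alternatives, 123 stayed within the counting interval, 88 moved with the same sign and 8 turned. The causes were not tested. No paired analysis was possible because each genotype has 1 library. Tomm6 and Mrpl53 rest on few reads, and counting error is the only error that depth can show here.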

Other observations

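The deposited table lists 3 further genes of these families under older symbols, which the choice by symbol left out. Mrp63, now called Mrpl57, had 15.6 RPKM in KO and 17.3 RPKM in WT. Ict1, now Mrpl58, had 4.03 RPKM in KO and 4.53 RPKM in WT, and Fxc1, now Timm10b, had 1.93 RPKM in KO and 2.44 RPKM in WT.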
